A study of Mus musculus with 8 samples.

Results

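The response to 2 Gy was followed in long-term haematopoietic stem cells (LT-HSC) of mice whose CD169+ macrophages had been depleted. It was read as the difference between 2 arrays of irradiated and 2 arrays of non-irradiated CD169-DTR mice, which are 4 of the 8 arrays of the series. Of the 40161 probe sets on the array, the 30294 with a single gene symbol were used, and they stand for 29915 genes.

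The CD169-DTR mice carry 1 copy of the diphtheria toxin receptor in the gene of CD169 (genotype CD169DTR/+, CD169 being the protein of Siglec1), so that the toxin kills the macrophages that express this gene. Wild-type (WT) mice received the toxin too, so all 4 groups were exposed to it. At 72 h after the toxin, mice were given 2 Gy of total body irradiation or a sham treatment, and bone marrow LT-HSC were sorted at day 5 as Lin- cKit+ Sca+ Flk2- CD48- CD150+ cells. The groups CD169-DTR non-irradiated, CD169-DTR 2 Gy, WT non-irradiated and WT 2 Gy hold 2 arrays each, which come from distinct experiments according to the design text, while the labels tie no replicate number to an experiment and give no age. The toxin receptor is driven by the Siglec1 gene and so marks any cell that expresses it, and the labels give no count of the macrophages left. With 2 arrays a group, the p-values measure the spread between these samples only.

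CD169+ macrophages of the bone marrow are known to help retain haematopoietic stem cells in their niche, in part through stromal cells that make the chemokine Cxcl12. Radiation breaks DNA, and the kinase ATM then stabilises p53, a transcription factor that turns on genes of cell cycle arrest, repair, cell death and its own inhibition. Stem cells that leave quiescence pass through DNA replication and mitosis, whereas interferons act on them through receptors that switch on antiviral genes.

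Values are log2 signals from RMA (robust multi-array averaging), in which 1 unit is a 2-fold difference, and differences are 2 Gy minus non-irradiated group means with the standard error (SE) of a limma fit. The array medians lay between 4.86 and 5.03, and over all probe sets the Pearson r between partners was 0.991 to 0.994. Both non-irradiated CD169-DTR arrays and 2 Gy replicate 1 correlated better with an array of another group (0.992 to 0.994) than with their own partner. CD169-DTR non-irradiated replicate 2 stood apart in Ighm, the heavy chain of immunoglobulin M, at 13.96 against 7.05 to 8.99 on the other 7 arrays, and in erythroid genes. CD169-DTR 2 Gy replicate 2 had the lowest erythroid level of the series. Counts or medians of many lists are therefore also given with a CD169-DTR array left out.

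In the sorted population, stem cell genes gave high signals, while Siglec1 and another macrophage marker gave low ones. Kit, the receptor for stem cell factor and a gate marker, stood at 14.77 and 14.66 in the non-irradiated and 14.25 and 14.25 in the 2 Gy CD169-DTR arrays. Siglec1 stood at 4.01 and 3.87 without and 3.93 and 3.86 with irradiation, near the 25th percentile of all signals on each array (3.88 to 4.06). Adgre1, the macrophage antigen F4/80, lay between 4.19 and 4.56 in the same 4 arrays. The depletion itself therefore cannot be read from these cells, which are not the cells it acts on. Slamf1, the gene of CD150, had 11.75 and 10.66 without and 11.69 and 10.98 with irradiation, and its values overlapped. Cd48, whose protein the gate excludes, had 11.05 and 12.54 without and 13.47 and 13 with irradiation, a difference of 1.44 ± 0.50 with no overlap (limma adjusted p = 0.644). Flt3, the gene of Flk2, also excluded by the gate, went the other way, from 7.37 and 8.22 to 5.85 and 6.48 (-1.63 ± 0.40, adjusted p = 0.551).

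No probe set passed an adjusted p under 0.05 in limma for 2 Gy in CD169-DTR mice, a share of 0.0%, while 2050 (6.77%) had an unadjusted p under 0.05. Without overlap between the groups, 5330 genes were higher (17.8% of all genes) and 4006 lower (13.4%). Called apart here are the genes that also differed by at least 1.5-fold, of which 613 were higher (2.05%) and 908 lower (3.04%). Among the 14980 genes with a mean above the median of all probe sets, 16.8% were higher and 17.9% lower without overlap, and 3.23% and 5.55% stood apart. Without non-irradiated replicate 2 the counts of genes apart were 1303 and 1602, and without 2 Gy replicate 1 they were 1445 and 1834. With a lone array in a group non-overlap is easier to meet, so these counts cannot be set against 613 and 908. With all arrays, the share of higher among genes apart was 40.3% on the deposited scale and 36.0% after each array was centred on its median. With a CD169-DTR array left out, 15033 to 17660 of the 29915 genes had a higher mean after 2 Gy and 12007 to 14578 a lower one. Over all genes the median difference was 0.035, and no gene named below passed the test unless that is said.

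Targets of p53 had the 3 smallest p-values among the genes ranked that were at least 1.5-fold higher without overlap. The ranking took genes whose larger CD169-DTR group mean lay above the median of all probe sets. Predicted and clone-named genes and olfactory and vomeronasal receptors were left out of it. Cdkn1a encodes p21, the inhibitor of cyclin-dependent kinases through which p53 holds cells in G1. It stood at 9.79 and 9.34 in non-irradiated and at 13.24 and 13.23 in 2 Gy arrays of CD169-DTR mice. The irradiated values are nearly equal and far above both controls. The difference of 3.67 ± 0.24 is 12.7-fold, with a 95% interval of 3.10 to 4.24 log2 and an adjusted p of 0.0622 in limma. It passed in 4 of the settings tried, with an adjusted p of 0.024 under an intensity trend, 0.0418 without dim probe sets, 0.0426 with all probe sets and 0.0451 after cyclic loess. E2f7, a repressor of E2F target genes, had 8.22 and 8.0 without and 9.38 and 9.52 with irradiation (1.34 ± 0.15, adjusted p = 0.244). Phlda3, an inhibitor of the kinase Akt, had 7.08 and 7.15 without and 8.35 and 8.46 with irradiation (1.29 ± 0.12, adjusted p = 0.163). Both irradiated arrays lay above both controls in each of these genes. In WT, Cdkn1a went from 7.86 and 8.39 to 13.06 and 13.41 (5.11 ± 0.24, limma adjusted p = 0.0073). Its CD169-DTR controls lay above both WT controls. The genotypes differed by -1.44 ± 0.34 in Cdkn1a (unadjusted p = 0.00421, adjusted p = 0.839). The WT difference was 1.33 in Phlda3 and 0.345 in E2f7.

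Of the p53 target genes, 49 of 55 were measured, 39 of them higher and 10 lower, with a median difference of 0.295 against 0.035 over all genes. The groups did not overlap in 18 higher and 4 lower members, against 17.8% and 13.4% of all genes, and 11 members stood apart, all of them higher, against 2.05% of all genes. With non-irradiated replicate 2 left out, 36 of 49 were higher with a median of 0.285, and without 2 Gy replicate 2 it was 38 of 49 with 0.25. The median was 0.17 without non-irradiated replicate 1 and 0.165 without 2 Gy replicate 1. In WT the same list had 33 higher members and a median of 0.225.

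The arrest genes had the highest median of the roles, with 7 of 10 higher and a median of 0.583. Gtse1, which binds p53 in G2, had 8.45 and 8.44 without and 9.37 and 9.80 with irradiation (1.14 ± 0.30). Ccng1, cyclin G1, went from 13.15 and 13.31 to 13.84 and 14.00 (0.69 ± 0.13, adjusted p = 0.516). Plk2, a polo-like kinase, stood at 6.34 and 5.70 without and 6.96 and 7.21 with irradiation. In these 3 genes the groups did not overlap. Genes of death and survival were higher in 11 of 12 members with a median of 0.398. Among them Eda2r, a death receptor, was far above its controls in 1 irradiated array only, with 5.21 and 5.79 without and 7.35 and 5.88 with irradiation. Fas, another death receptor, had 4.81 and 4.82 against 4.99 and 5.94. The BH3-only killers Bbc3 (0.205 ± 0.14) and Pmaip1 (0.295 ± 0.22) differed by little more than their errors. Outside that list, Bcl2l1, which encodes the survival protein Bcl-xL, went from 7.33 and 7.43 to 7.81 and 7.94 (0.495 ± 0.11, adjusted p = 0.544) with no overlap.

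Feedback genes of p53 had a median of only 0.0775 over 8 members. Mdm2, the ubiquitin ligase that degrades p53, had 9.17 and 8.55 without and 9.11 and 8.77 with irradiation, and the groups overlapped. Zmat3, an RNA-binding target of p53, had 5.21 and 5.20 without and 5.62 and 5.95 with irradiation (0.58 ± 0.15, adjusted p = 0.617). For repair and metabolism genes, 16 of 19 were higher with a median of 0.28. Ephx1, an epoxide hydrolase, led them with 8.80 and 8.0 without and 9.94 and 9.47 with irradiation (1.305 ± 0.29). Its 4 WT arrays lay between 9.45 and 9.66, so the CD169-DTR controls were the low ones.

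**Figure D1:**
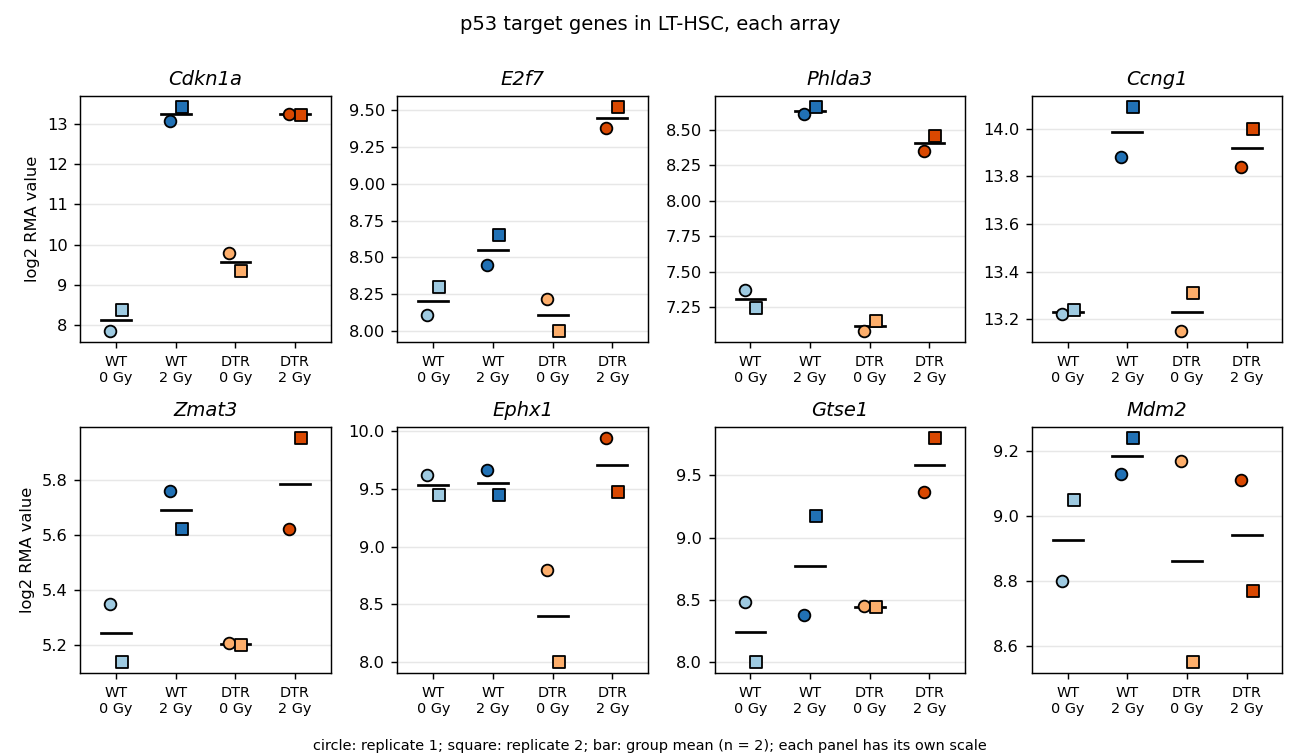
Log2 RMA value (y axis, own scale in each panel) of 8 p53 target genes on each of the 8 arrays, by group (x axis, DTR for CD169-DTR and 0 Gy for non-irradiated, n = 2, bar at the mean). Cdkn1a lay at 13.23 and 13.24 in CD169-DTR 2 Gy, above its controls at 9.34 and 9.79, while the Mdm2 values overlapped.

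Genes of G2 and mitosis were mostly higher after 2 Gy. Of 61 measured members, 57 were higher and 4 lower, and the median difference was 0.385. The groups did not overlap in 36 higher members (59.0%, against 17.8% of all genes) and 0 lower ones, and 14 stood apart, against 2.05% of all genes. When non-irradiated replicate 2 was dropped, 54 were higher with a median of 0.405, and without 2 Gy replicate 2 it was 56 with 0.355. The median moved more without non-irradiated replicate 1 (52 higher, 0.275) and without 2 Gy replicate 1 (53 higher, 0.3). In WT, 43 members were higher with a median of 0.11, and the irradiated WT arrays differed from each other: the list's mean deviation from the 8-array mean was -0.32 in 2 Gy replicate 1 and 0.20 in replicate 2, against -0.32 and -0.15 in the WT controls. The WT arrays were without overlap in the same direction in 8 of the 36 genes, while 31.3% of all genes were higher without overlap in WT.

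Many of these genes share a promoter element. The motif TTTGAA, known as the cell cycle genes homology region (CHR), was in the window from 250 bases before to 50 bases after the start in 34 of 50 genes of the list with a window (68.0%), against 18.2% of 17805 genes. CCAAT, the box bound by NF-Y, was in 36 of 50 (72.0%) against 41.5%. Both strands were searched, and the motifs share no fixed overlap. The 150 bases before the start of 3 spindle genes, from RefSeq on GRCm38.p6 and read on the strand of the gene, show the arrangement, with matches on either strand in capitals.
Kif11, chr19:37376232-37376381, plus strand: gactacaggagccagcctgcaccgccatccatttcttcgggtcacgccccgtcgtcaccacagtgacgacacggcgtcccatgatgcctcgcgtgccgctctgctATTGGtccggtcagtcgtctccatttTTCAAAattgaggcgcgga
Cdc20, chr4:118437344-118437493, minus strand: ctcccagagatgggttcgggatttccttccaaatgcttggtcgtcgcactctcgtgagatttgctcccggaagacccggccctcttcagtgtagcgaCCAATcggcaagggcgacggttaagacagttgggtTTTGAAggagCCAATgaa
Kif22, chr7:127042421-127042570, minus strand: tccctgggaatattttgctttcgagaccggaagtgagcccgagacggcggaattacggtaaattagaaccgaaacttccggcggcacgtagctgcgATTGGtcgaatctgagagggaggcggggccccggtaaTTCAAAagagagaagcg
The CHR match starts at -19 in Kif11, -18 in Cdc20 and -17 in Kif22, counted from the start site, and a CCAAT match lies upstream of it at -45, -53 and -54.

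Kif11, the motor that pushes spindle poles apart, had 11.50 and 11.87 without and 12.22 and 12.37 with irradiation in CD169-DTR mice (0.61 ± 0.23). Kif22, a motor on chromosome arms, had 10.45 and 11.12 without and 11.70 and 11.68 with irradiation (0.905 ± 0.32). Cdc20, an activator of the anaphase-promoting complex, had 12.01 and 12.59 without and 12.93 and 12.80 with irradiation (0.565 ± 0.28). In all 3 the irradiated arrays were the high ones, and the gap to the nearer control was smaller than the gap between the controls. Kinetochore and spindle genes were higher in 26 of 27 members with a median of 0.43, and genes of chromosome structure and mitotic exit in 18 of 19 with 0.445.

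Ect2, the exchange factor that drives cytokinesis, had the smallest p of the list. It stood at 9.19 and 8.83 without and at 10.03 and 10.76 with irradiation (1.385 ± 0.32, adjusted p = 0.544). Its WT values were 8.77 and 8.98 without and 9.25 and 8.53 with irradiation, and the CD169-DTR difference minus the WT difference was 1.37 ± 0.46 (unadjusted p = 0.0212, adjusted p = 0.913). Kif20b, a kinesin of cytokinesis, had 10.04 and 9.85 without and 10.58 and 10.59 with irradiation. Dlgap5, a spindle protein, had 8.24 and 8.29 without and 9.10 and 8.89 with irradiation (0.73 ± 0.17). Incenp, the scaffold of Aurora B, had 9.16 and 9.26 against 9.83 and 9.84. All 3 were without overlap. Kinases and cyclins had a lower median of 0.28 with 13 of 15 higher, and none stood apart. Cdk1, the mitotic kinase, had 12.12 and 12.20 without and 12.29 and 12.47 with irradiation (0.22 ± 0.17), and Mki67, the proliferation marker Ki-67, 14.26 and 14.64 against 14.93 and 14.86 (0.445 ± 0.28).

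DNA replication genes leaned the same way by less. Of 47 genes of G1/S and replication, 37 were higher with a median of 0.165, and only Gins1, a subunit of the replicative helicase complex, stood apart (0.615). Rfc5, a clamp loader subunit, had 10.46 and 10.35 without and 10.81 and 11.14 with irradiation (0.57 ± 0.16). E2f1, a transcription factor of S phase entry, had 7.24 and 7.36 against 7.66 and 7.78 (0.42 ± 0.11, adjusted p = 0.617). Neither overlapped. Without non-irradiated replicate 1, 29 of the 47 were higher with a median of 0.065, and without replicate 2 it was 39 with 0.25.

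Double-strand break repair genes were higher in 26 of 41 members with a median of 0.13, and 9 were higher without overlap and 0 lower, against 17.8% and 13.4% of all genes. The median was 0.24 without non-irradiated replicate 2 and 0.095 without non-irradiated replicate 1. Without 2 Gy replicate 1, 23 of the 41 were higher with a median of 0.12, against 16872 of 29915 genes. The homologous recombination genes had 12 of 15 higher and a median of 0.265, while end joining genes had 4 of 10 higher and a median of -0.01. Xrcc3, a recombination gene, had 8.28 and 8.72 without and 9.03 and 9.43 with irradiation (0.73 ± 0.23). H2ax, the histone variant phosphorylated at DNA breaks, went from 13 and 12.89 to 13.74 and 14.48 (1.165 ± 0.27, adjusted p = 0.544). The WT arrays went the other way in H2ax, from 13.71 and 13.51 to 12.65 and 13.10. The difference between the genotypes was 1.9 ± 0.38, with an unadjusted p of 0.00182 and an adjusted p of 0.778. H2ac10, a replication-dependent H2A gene whose copies are nearly identical and could share probe signal, behaved alike, with 16.31 and 15.84 against 16.61 and 17.20 in CD169-DTR and 16.93 and 16.81 against 16.12 and 16.13 in WT. Over the 18 histone genes measured of 47, 11 were higher and 7 lower in CD169-DTR, with a median of 0.095, or 0.198 without 2 Gy replicate 1.

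**Figure D2:**
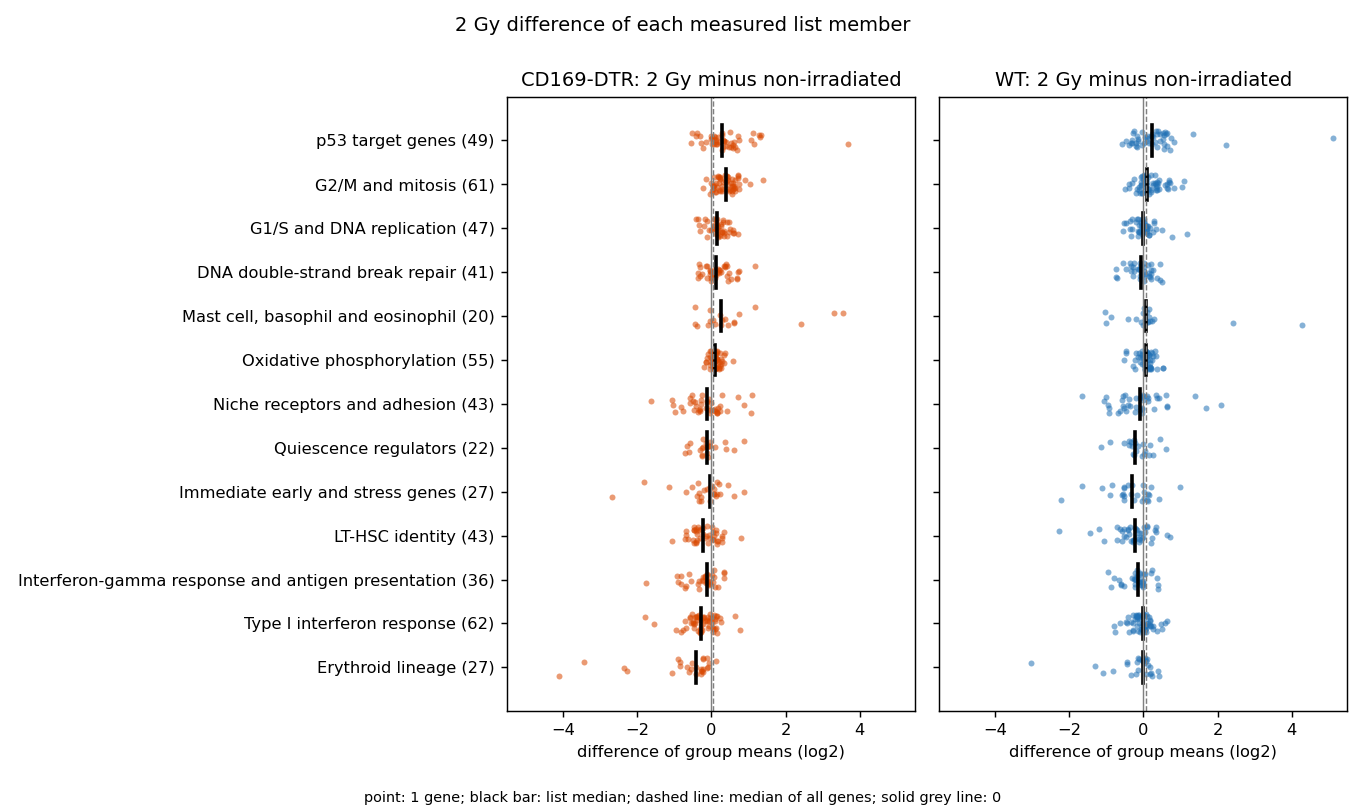
Difference of group means in log2 (x axis) of each measured member (points) of gene lists (y axis, number measured in brackets), in CD169-DTR on the left and WT on the right, with the list median as a black bar and the median of all genes dashed. In CD169-DTR the G2/M median lay at 0.385 and the type I interferon median at -0.27, against 0.11 and -0.0175 in WT.

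Interferon-response genes were mostly lower after 2 Gy, and in many of them the CD169-DTR controls stood above every WT array. Of 62 type I interferon genes measured, 45 were lower and 17 higher, with a median of -0.27. The groups did not overlap in 22 lower and 2 higher members, against 13.4% and 17.8% of all genes. Those that stood apart were 8 lower members and 1 higher member, against 3.04% and 2.05% of all genes. Without non-irradiated replicate 2, 49 were lower with a median of -0.228, and without 2 Gy replicate 2 it was 40 with -0.12. In WT, 32 were lower and 30 higher, with a median of -0.0175. In 13 of the 22 genes (59.1%) both CD169-DTR controls lay above all 4 WT arrays, which held for 19.5% of all genes lower without overlap. In 8 of the 22 the irradiated CD169-DTR values lay inside the range of the WT arrays. This was a similar share to that of all genes lower without overlap, 1543 of 4006.

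Promoters of some of these genes carry the pair of half-sites bound by interferon regulatory factors. The pair was searched on both strands as GAAA, any 2 bases and GAAA again. It was in the window of 22 of 49 genes of the list (44.9%) and 6 of 6 GBP and IRG genes with a window, against 3.85% of 17805 genes. Windows of Oasl1, Oasl2, Cmpk2 and Uba7 held no match, while those of Ifit1 and Ddx58 did. How the motif relates to the differences was not tested. The 150 bases before the start of 3 genes, from RefSeq on GRCm38.p6 on the strand of the gene, are shown because they place the matches, in capitals, where adjoining matches run together.
Ifit1, chr19:34640739-34640888, plus strand: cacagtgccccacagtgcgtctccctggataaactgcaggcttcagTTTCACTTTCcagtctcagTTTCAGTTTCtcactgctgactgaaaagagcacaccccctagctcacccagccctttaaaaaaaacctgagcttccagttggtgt
Isg15, chr4:156200819-156200968, minus strand: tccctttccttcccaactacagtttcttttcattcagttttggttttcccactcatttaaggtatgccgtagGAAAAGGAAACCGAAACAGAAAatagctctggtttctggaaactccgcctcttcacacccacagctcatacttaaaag
Irgm1, chr11:48871421-48871570, minus strand: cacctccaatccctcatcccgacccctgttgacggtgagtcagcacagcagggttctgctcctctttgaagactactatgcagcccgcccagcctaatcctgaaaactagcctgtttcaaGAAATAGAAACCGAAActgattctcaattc

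Ifit1, which binds viral RNA that lacks a host cap, stood at 8.76 and 8.32 in non-irradiated and at 7.60 and 5.91 in irradiated CD169-DTR arrays (-1.785 ± 0.52, adjusted p = 0.622). Its WT arrays lay between 7.22 and 7.80, so the controls were above and 1 irradiated array below all of them. Isg15, a ubiquitin-like modifier, had 7.82 and 7.56 without and 7.53 and 7.06 with irradiation (-0.395 ± 0.22). Irgm1, an immunity-related GTPase of the interferon-gamma list, had 7.94 and 8.41 against 7.84 and 7.85 (-0.33 ± 0.19). The irradiated arrays were the lower ones in both.

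In 6 of the 22 type I interferon genes lower without overlap, the controls lay above all WT arrays and the irradiated values within their range. Over all genes lower without overlap, this held for 284 of 4006. Rtp4, an interferon-induced inhibitor of viral replication, was 1 of the 6. It stood at 10.51 and 9.61 in the CD169-DTR controls and at 8.57 and 8.46 after 2 Gy, while the WT arrays lay between 8.34 and 8.74. The difference was -1.545 ± 0.29 in CD169-DTR (adjusted p = 0.515) and -0.185 in WT, and the difference between these was -1.36 ± 0.41 (unadjusted p = 0.0139, adjusted p = 0.91). Oasl1, an OAS-like regulator of antiviral translation, had 6.02 and 5.73 without and 4.94 and 4.90 with irradiation (-0.955 ± 0.19), with WT arrays between 4.81 and 5.27. Ddx58, which encodes the viral RNA sensor RIG-I, had 11.11 and 10.74 against 10.14 and 10.17 (-0.77 ± 0.16, adjusted p = 0.516). In all 3 the irradiated arrays were the low ones and the controls lay above every WT array.

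Other interferon genes were lower after 2 Gy in both genotypes. Oasl2 had 8.76 and 8.68 without and 8.10 and 7.96 with irradiation in CD169-DTR (-0.69 ± 0.13), and 8.49 and 8.50 against 7.84 and 7.62 in WT. Cmpk2, a mitochondrial nucleotide kinase, had 9.54 and 10.01 against 9.02 and 8.89 in CD169-DTR (-0.82 ± 0.22) and a WT difference of -0.795. Uba7, the enzyme that activates Isg15, had 9.52 and 9.47 against 8.79 and 9.03 (-0.585 ± 0.12). By role, 6 of 6 OAS and RNase L genes were lower with a median of -0.533, 5 of 5 ubiquitin-like modifiers with -0.285, 24 of 32 antiviral effectors with -0.283 and 9 of 14 sensors with -0.153. PYHIN genes, sensors of cytosolic DNA, were the exception, with 1 of 5 lower and a median of 0.035.

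Genes of the interferon-gamma response and antigen presentation were lower in 27 of 36 members with a median of -0.13, close to the WT median of -0.14. The groups did not overlap in 18 lower and 1 higher member, against 13.4% and 17.8% of all genes, and 7 lower members stood apart, against 3.04% of all genes. With non-irradiated replicate 2 left out, 27 were lower with a median of -0.158, and without 2 Gy replicate 2 it was 27 with -0.11. The median was -0.203 without non-irradiated replicate 1 and -0.21 without 2 Gy replicate 1. Gbp8, a guanylate-binding GTPase, had 7.63 and 8.22 without and 6.68 and 5.64 with irradiation (-1.765 ± 0.35, adjusted p = 0.516). Its WT arrays lay at 6.84 and 7.00 without and 7.37 and 7.24 with irradiation, and the genotypes differed by -2.15 ± 0.49 (unadjusted p = 0.00389, adjusted p = 0.839). The MHC class II genes H2-Aa (6.46 and 6.25 against 5.53 and 5.78, -0.70 ± 0.15) and H2-Ab1 (10.88 and 10.79 against 10.12 and 9.94, -0.805 ± 0.25) were lower without overlap. In WT the difference was -0.79 for H2-Aa and -0.125 for H2-Ab1. MHC class II genes are also made by other blood cells, and in bulk RNA fewer cells of a type and less RNA per cell cannot be told apart.

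Genes of inflammatory signalling differed less. Of 29 NF-kB genes and cytokines, 19 were lower and 9 higher with a median of -0.135, which was -0.055 without non-irradiated replicate 1 and -0.07 without 2 Gy replicate 1. Tnfrsf1b, a receptor for tumour necrosis factor, had 8.18 and 8.06 without and 7.36 and 6.70 with irradiation (-1.09 ± 0.34). Il6, the cytokine interleukin 6, had 3.94 and 4.48 against 4.68 and 5.71, while the WT controls at 5.51 and 4.71 lay above the WT 2 Gy arrays at 4.08 and 3.96.

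Among microRNA genes, read here as the array's probe sets for their loci and not as mature microRNAs, Mir148a had the smallest p of all lower probe sets. Mature sequences of the 4 loci described, from RefSeq on GRCm38.p6 with seed bases 2 to 8 in capitals, show that no 2 of them share a seed.
mmu-miR-148a-3p, chr6:51269829-51269850, minus strand: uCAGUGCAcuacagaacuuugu
mmu-miR-155-5p, chr16:84714143-84714165, plus strand: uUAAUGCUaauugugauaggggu
mmu-miR-130a-3p, chr2:84741116-84741137, minus strand: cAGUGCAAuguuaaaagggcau
mmu-miR-34a-5p, chr4:150068473-150068494, plus strand: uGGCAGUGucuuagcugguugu
The seeds CAGUGCA and AGUGCAA of miR-148a-3p and miR-130a-3p overlap by 6 bases, shifted by 1.

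Mir148a stood at 6.40 and 5.72 in the CD169-DTR controls and at 2.92 and 3.08 after 2 Gy. The WT arrays lay between 2.82 and 3.19 with or without irradiation, so only the CD169-DTR controls were above the 25th percentile of signals. Values that low carry little signal over background, so the size of the differences is limited by the low end of the scale and may be understated. The fitted difference was -3.06 ± 0.23 (95% interval -3.62 to -2.50, adjusted p = 0.087), and the genotypes differed by -3.23 ± 0.33 (unadjusted p = 3.6e-05, adjusted p = 0.679). It passed with an adjusted p of 0.024 under the intensity trend, 0.0451 after cyclic loess and 0.0337 without non-irradiated replicate 2. Mir155, a microRNA of immune activation, had 8.11 and 7.28 without and 6.19 and 5.84 with irradiation (-1.68 ± 0.43). In WT it had 7.37 and 6.36 against 6.92 and 7.57, and the genotypes differed by -2.06 ± 0.60 (adjusted p = 0.906). Mir130a, a microRNA of stem and progenitor cells, had 6.59 and 6.84 against 6.08 and 5.89 (-0.73 ± 0.21). Mir34a, a p53 target, was higher in both genotypes without overlap, from 4.68 and 4.58 to 4.87 and 4.92 in CD169-DTR and from 4.47 and 4.45 to 5.41 and 5.42 in WT. The genotypes differed by -0.69 ± 0.15 in Mir34a (unadjusted p = 0.00315, adjusted p = 0.839).

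**Figure D3:**
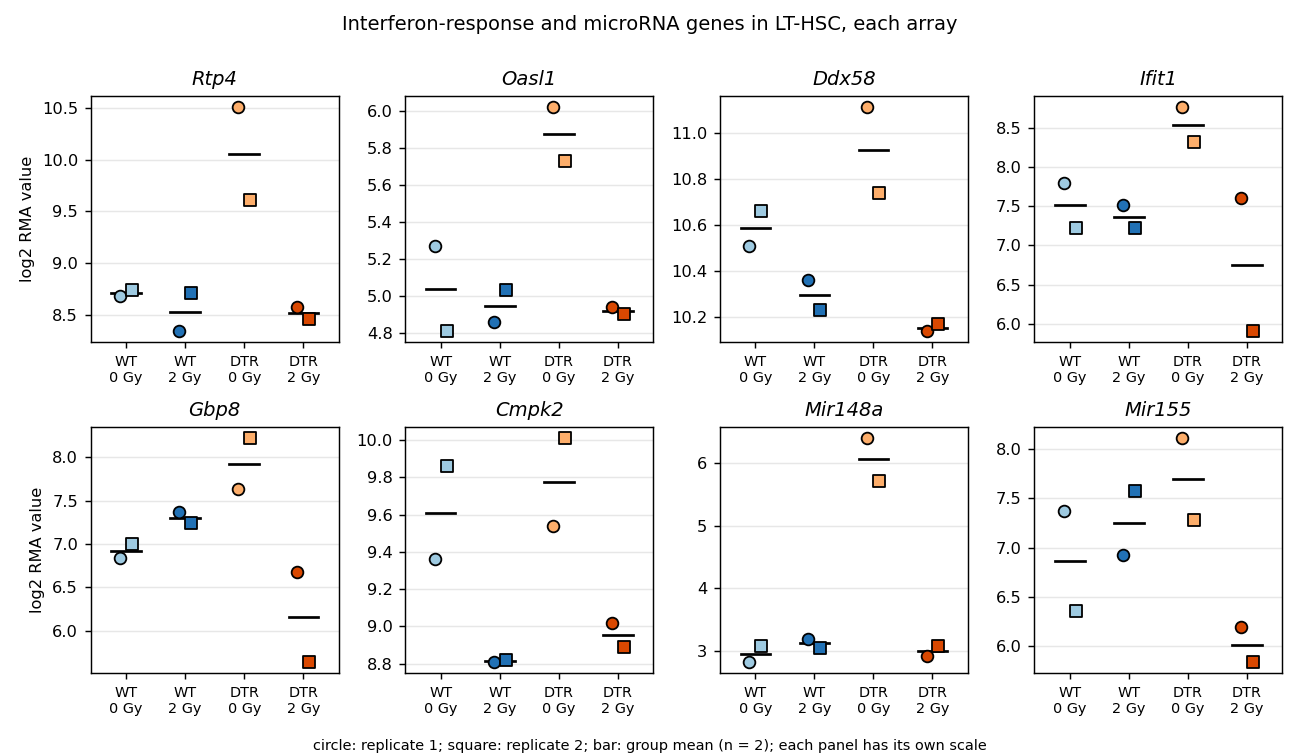
Log2 RMA value (y axis, own scale in each panel) of 6 interferon-response genes and the loci of 2 microRNAs on each array, by group (x axis, DTR for CD169-DTR and 0 Gy for non-irradiated, n = 2, bar at the mean). The CD169-DTR controls of Rtp4 (10.51 and 9.61) and Mir148a (6.40 and 5.72) lay above the other 6 arrays.

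Stem cell identity genes were mostly lower, in both genotypes. Of 43 measured, 28 were lower and 15 higher with a median of -0.215 in CD169-DTR and -0.235 in WT. The groups did not overlap in 21 lower and 3 higher members of CD169-DTR, against 13.4% and 17.8% of all genes. In 14 of the 21 the WT arrays were without overlap in the same direction, against 914 of 4006 genes lower without overlap in CD169-DTR. When non-irradiated replicate 2 was dropped, 35 were lower with a median of -0.335, and without 2 Gy replicate 2 it was 29 with -0.115. Kit had a difference of -0.465 ± 0.11 (adjusted p = 0.544) in CD169-DTR and -0.565 in WT. Hlf, a transcription factor of stem cells, had 12.94 and 12.95 without and 12.44 and 12.54 with irradiation (-0.455 ± 0.12). Meis1, a homeobox partner that protects stem cells from oxidative stress, had 13.29 and 12.97 against 12.76 and 12.14 (-0.68 ± 0.22). The controls were above both irradiated arrays in all 3.

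Among the 15 higher members, Ctnnal1, which encodes alpha-catulin and marks stem cells, had 7.26 and 7.51 without and 8.36 and 8.03 with irradiation (0.81 ± 0.18, adjusted p = 0.544). Mecom, a regulator of stem cell maintenance, differed by 0.28 ± 0.18 and Cd34 by 0.05 ± 0.23. Of 22 quiescence regulators, 17 were lower with a median of -0.13. Txnip, an inhibitor of thioredoxin, had 17.31 and 16.93 against 16.65 and 16.27 (-0.66 ± 0.19). Nr4a2, a nuclear receptor, was higher, with 8.36 and 8.62 against 9.43 and 9.32 (0.885 ± 0.18, adjusted p = 0.516). Without non-irradiated replicate 2 the quiescence median was -0.303.

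Receptors, adhesion molecules and proteases of the niche went both ways, with 28 of 43 lower, 15 higher and a median of -0.115. Without 2 Gy replicate 2, 23 were lower with a median of -0.025, and the median was -0.19 without non-irradiated replicate 1 and -0.215 without 2 Gy replicate 1. Cxcr4, the receptor for Cxcl12, had 14.17 and 14.00 without and 13.79 and 13.88 with irradiation in CD169-DTR, a difference of -0.25 ± 0.12 without overlap. In WT the same gene had 14.16 and 14.10 against 12.43 and 12.51. The difference between the genotypes was 1.41 ± 0.17, with a 95% interval of 1.01 to 1.81, an unadjusted p of 9.6e-05 and an adjusted p of 0.679. Mmp2, a matrix metalloproteinase, had 6.80 and 6.73 without and 7.69 and 7.59 with irradiation in CD169-DTR (0.875 ± 0.14, adjusted p = 0.466) and 6.12 and 5.89 against 8.23 and 7.99 in WT. All irradiated arrays were above all controls in Mmp2, and the genotypes differed by -1.23 ± 0.20 (unadjusted p = 0.000605, adjusted p = 0.753). Il6st, the shared receptor subunit gp130, had 9.84 and 9.61 against 10.12 and 10.15 in CD169-DTR and 10.36 and 10.55 against 9.89 and 9.15 in WT, in opposite directions (1.345 ± 0.34, adjusted p = 0.874).

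Alcam, an adhesion molecule, had 8.94 and 8.66 without and 7.89 and 7.63 with irradiation (-1.04 ± 0.18, adjusted p = 0.466). Itgal, the alpha chain of the integrin LFA-1, had 6.02 and 5.67 against 6.95 and 6.92 (1.09 ± 0.26). Mmp14, a membrane protease that activates Mmp2, had 6.03 and 6.64 against 5.14 and 5.39 (-1.07 ± 0.24), and in WT all 4 values lay between 5.30 and 5.70. None of these overlapped in CD169-DTR. In WT, Alcam went from 9.28 and 9.13 to 8.41 and 8.72. Timp3 (-0.755 ± 0.20) and Timp2 (-0.405 ± 0.14), inhibitors of these proteases, were lower in CD169-DTR and by 0.485 and 0.54 in WT.

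Fosb, Fos and Jun, subunits of the transcription factor AP-1, had lower means after 2 Gy in both genotypes. Fosb had 10.72 and 11.14 without and 7.76 and 8.77 with irradiation (-2.665 ± 0.41, adjusted p = 0.466). Fos had 8.92 and 9.76 against 7.25 and 7.78 (-1.825 ± 0.36) and Jun 11.52 and 11.96 against 10.86 and 10.36 (-1.13 ± 0.36). All irradiated values were below both controls, and the WT differences were -2.22, -0.895 and -0.53. Over the 27 immediate early and stress genes the median was -0.035 with 15 lower, -0.24 without non-irradiated replicate 2 and -0.215 without 2 Gy replicate 2.

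**Figure D4:**
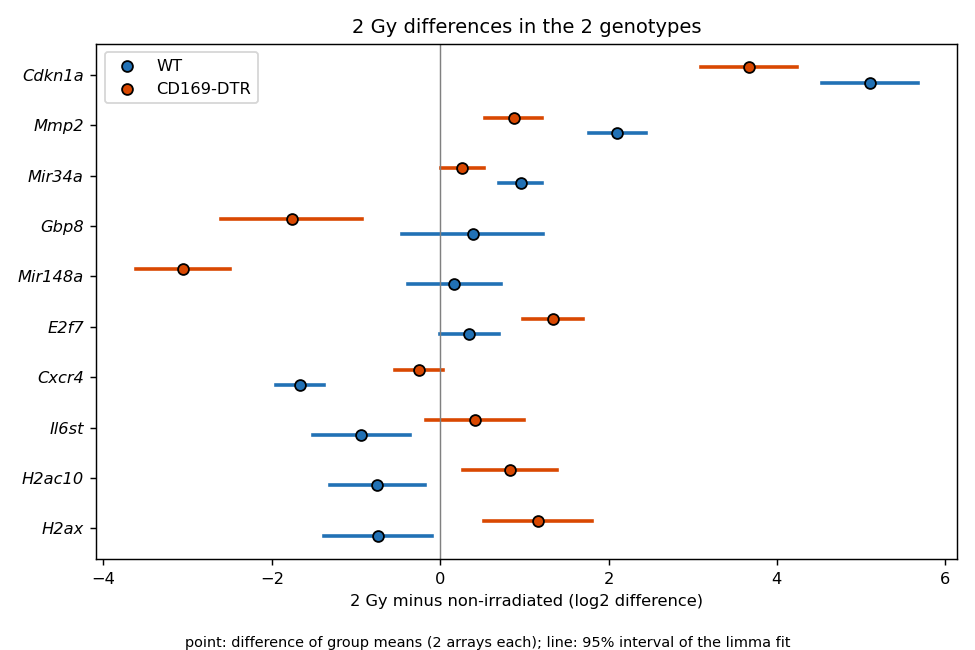
Difference of 2 Gy minus non-irradiated group means in log2 (x axis) with 95% intervals of the limma fit for 10 genes (y axis), in WT (blue) and CD169-DTR (orange). Cxcr4 had -1.66 in WT and -0.25 in CD169-DTR, and Mir148a 0.17 and -3.06.

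The test of the difference between the genotypes passed for 0 probe sets (0.0%) in limma, and 1567 (5.17%) had an unadjusted p under 0.05. Genes with a larger positive difference in CD169-DTR included Ube2s, a ubiquitin-conjugating enzyme of the anaphase-promoting complex, with 11.62 and 11.51 against 12.02 and 12.39 in CD169-DTR and 12.71 and 12.36 against 11.28 and 11.47 in WT (1.80 ± 0.26, adjusted p = 0.679). Dhrs3, a retinal reductase, had 7.77 and 7.74 against 8.30 and 8.35 in CD169-DTR and 8.64 and 8.30 against 7.39 and 7.56 in WT (1.565 ± 0.21). On the other side was Cd86, a ligand of T cell co-receptors, with 8.29 and 8.30 against 7.45 and 7.30 in CD169-DTR and 7.62 and 7.19 against 8.33 and 7.93 in WT (-1.645 ± 0.28, adjusted p = 0.753). The arrays moved in opposite directions in the 2 genotypes in all 3 genes, and the non-irradiated arrays of the genotypes did not overlap.

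Of the genes named by the smallest p outside the lists, those described here were picked after their values were seen and were not tested as groups. Zswim7, a recombination factor, had 11.23 and 11.33 without and 12.23 and 12.22 with irradiation (0.945 ± 0.11, adjusted p = 0.297), with WT arrays between 11.93 and 12.04. Cd180, a Toll-like receptor homolog of immune cells, had 7.13 and 7.60 against 8.90 and 9.19 (1.68 ± 0.27, adjusted p = 0.466). Cfp, properdin of the complement system, had 7.02 and 7.46 against 8.62 and 9.50 (1.82 ± 0.30). The C-type lectin receptors Clec4e (6.29 and 6.24 against 7.16 and 7.35) and Clec4d (4.39 and 4.91 against 5.92 and 5.66) of myeloid cells were also higher without overlap. Genes were named here by the level of their higher group. Clec4d met that through its irradiated arrays, with controls near or below the array medians. In WT, Cd180 went from 7.17 and 7.66 to 8.64 and 8.14 and Cfp from 7.08 and 7.23 to 7.88 and 7.61. Clec4d was also higher in WT, from 4.91 and 5.18 to 5.22 and 5.35, while the WT values of Clec4e overlapped. Beside these, monocyte and macrophage markers were higher in 15 of 26 with a median of 0.0325. The part of such cells in these values was not tested.

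The lower genes described next were likewise picked from those named. Sqle, squalene epoxidase, had 10.71 and 10.78 without and 9.79 and 9.63 with irradiation (-1.035 ± 0.14, adjusted p = 0.436). Idi1, isopentenyl-diphosphate isomerase, had 8.76 and 8.39 against 7.38 and 7.56 (-1.105 ± 0.18), while the WT arrays lay between 8.23 and 8.70. Elovl6, a fatty acid elongase, had 11.04 and 10.95 against 9.92 and 10.11 (-0.98 ± 0.13, adjusted p = 0.436). The irradiated arrays were the low ones in all 3. In WT, Sqle went from 10.66 and 10.56 to 9.87 and 10.13, and Elovl6 from 10.42 and 10.32 to 10.22 and 10.07. Hsph1, a heat shock protein of the Hsp110 family, had 12.47 and 12.88 against 11.11 and 10.56 (-1.84 ± 0.25, adjusted p = 0.436), and Hspb8, a small heat shock protein, 6.21 and 6.57 against 4.96 and 5.27 (-1.275 ± 0.21). Pdgfrb, a receptor of mesenchymal and mural cells, had 7.55 and 7.75 against 5.24 and 5.41 (-2.325 ± 0.33, adjusted p = 0.466), beside an endothelial and stromal marker median of 0.065 with 18 of 25 higher. In WT, Hsph1 went from 11.81 and 11.44 to 10.88 and 11.16, and Pdgfrb from 6.88 and 6.35 to 5.08 and 6.07. The WT values of Hspb8 overlapped.

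Markers of other blood lineages differed between single arrays. Erythroid genes were lower in 26 of 27 members with a median of -0.405. The groups did not overlap in 12 lower and 0 higher members, against 13.4% and 17.8% of all genes. But their mean level stood 0.966 above the mean of the 8 arrays in non-irradiated replicate 2 and at -0.719 in 2 Gy replicate 2. The partners lay at -0.222 and -0.109. With non-irradiated replicate 2 left out, 17 were lower with a median of -0.19, and without 2 Gy replicate 2 it was 19 with -0.185. Car1, carbonic anhydrase of erythroid progenitors, had 12.12 and 16.07 without and 11.89 and 8.09 with irradiation, which shows the spread. Klf1, the erythroid transcription factor, had 7.94 and 8.36 against 7.88 and 6.62.

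Mast cell and basophil genes were higher in 14 of 20 members with a median of 0.268. Among the 20, 6 stood apart, all higher, against 2.05% of all genes. Mcpt8, a basophil protease, had 8.88 and 5.53 without and 11.32 and 10.19 with irradiation (3.55 ± 1.03). Its WT arrays lay between 9.26 and 11.05, so the CD169-DTR controls were the low ones. Cpa3, a mast cell carboxypeptidase, had 10.21 and 10.77 against 11.70 and 11.61 (1.165 ± 0.31, adjusted p = 0.617). Without 2 Gy replicate 2 the list median was 0.475, and without non-irradiated replicate 2 it was 0.273 with 12 of 20 higher.

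Neutrophil and granulocyte progenitor genes were lower in 19 of 28 members with a median of -0.133, or between -0.248 and -0.025 with a CD169-DTR array left out, against 0.483 in WT. Elane, neutrophil elastase, had 12.61 and 12.87 without and 12.76 and 12.86 with irradiation in CD169-DTR and 11.76 and 11.59 against 12.80 and 14.57 in WT. Cebpa, the granulocyte transcription factor, had 7.81 and 8.06 against 6.80 and 6.26 in CD169-DTR (-1.405 ± 0.28, adjusted p = 0.516), a difference of -1.39 ± 0.40 from that in WT (adjusted p = 0.886). Megakaryocyte genes were higher in 15 of 22 with a median of 0.115 (0.0675 to 0.315 with a CD169-DTR array left out), among them Pf4, platelet factor 4, with 15.48 and 15.78 against 16.63 and 16.03. The part of these lineages in the differences above was not tested.

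**Figure D5:**
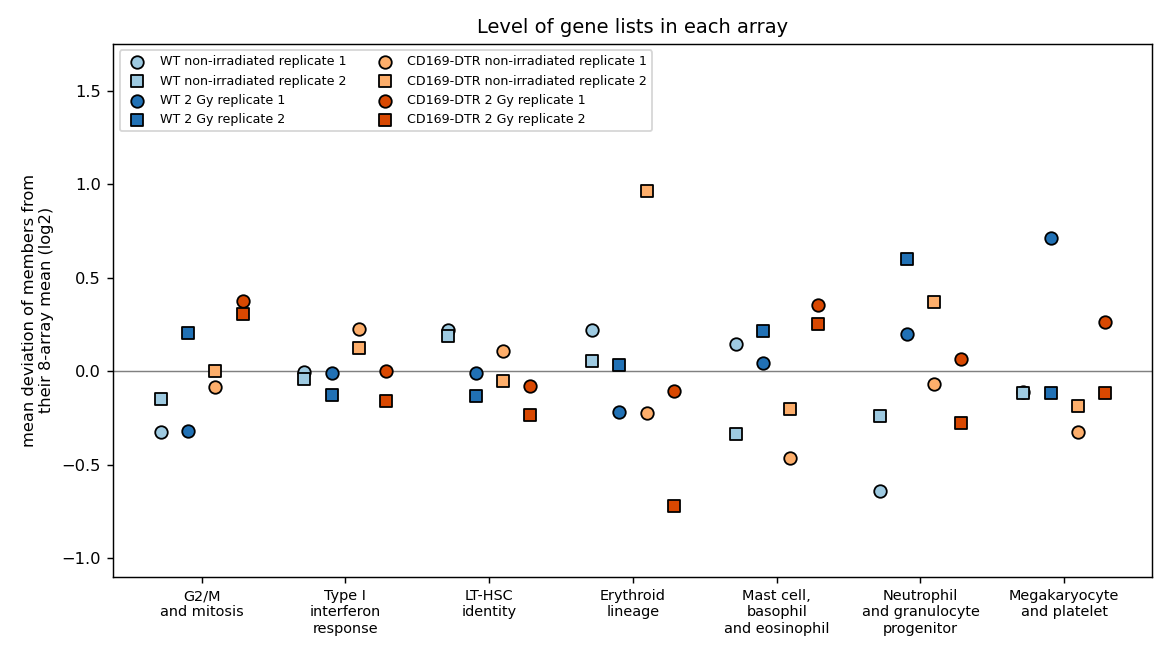
Mean deviation of the members of 7 gene lists from their mean over the 8 arrays, in log2 (y axis), for each array (points) by list (x axis). The erythroid list lay at 0.966 in CD169-DTR non-irradiated replicate 2 and at -0.719 in CD169-DTR 2 Gy replicate 2, while both CD169-DTR 2 Gy arrays were above the other 6 for G2/M and mitosis.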

How the data were processed

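Biotinylated cDNA of sorted LT-HSC was hybridised to 8 Affymetrix arrays, 2 for each of 4 groups. The deposited log2 values come from RMA per the submitters' processing notes; the log base, array build and aligner are not given in the sources used here, and log2 is the convention of RMA. Values were used as deposited. The probe table named 30294 probe sets by 1 symbol, 2145 by several and 7722 by none, and 22546 matched RefSeq on GRCm38.p6. A gene with several probe sets is represented by the one with the highest mean.

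One model of the 4 group means was fitted with limma 3.58.1 (lmFit, eBayes; statmod 1.5.0, R 4.3.3), whose residual SD had a median of 0.182 log2 (degrees of freedom: 4 residual, 2.59 prior). All tests are two-sided, and p-values were adjusted by Benjamini-Hochberg over the 30294 probe sets within a comparison. The difference between genotypes is the interaction of that model, and the WT and CD169-DTR contrasts share no array. The number of arrays limits the precision. As a self-test, the fit was also run on simulated independent values with planted differences. Its detection rate is not given here, so the run does not show what the real comparison could miss.

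Members and gene lists were chosen with earlier results of these data known, so no list counts as independent support. Named genes were those with the smallest unadjusted p among probe sets that differed at least 1.5-fold without overlap, up to 4 genes of each list role, the leading genes of the interaction, and always the gate genes Kit, Slamf1, Cd48 and Flt3, the p53 targets Cdkn1a, Phlda3, Ccng1, Mdm2 and Mir34a, and Siglec1, Mki67, Cxcr4, Mmp2 and Mir148a. The text gives a choice among them, and some further list members named to show a role (such as Cdk1, Elane and Fas) were chosen after their values were seen. Predicted and clone-named genes and olfactory and vomeronasal receptors were passed over. Genes named by the smallest p outside the list roles also needed a higher group mean above the median of all probe sets. Some could meet this only through the group where they were high. Bax and Ly6a are not analysed here. Replicate numbers did not pair the arrays, with correlations of their deviations between -0.0877 and 0.159. Alternatives were an intensity trend, a filter at the 40th percentile, all probe sets, array weights, median centring, cyclic loess, the replicate block, only the compared groups, and each array left out in turn.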

Additional observations from a re-analysis of the deposited data

How the results depend on the processing

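Groups of 2 arrays limit every call, and a lone array is taken to have the spread of those of other groups. For 2 Gy in CD169-DTR, the count of probe sets that passed was 2 with an intensity trend, all probe sets or cyclic loess, 1 without dim probe sets (Cdkn1a) or with only the groups compared (Gm22205), 0 with median centring, array weights or the replicate block, and 0 to 5 with an array left out. For the difference between genotypes it was 0 under each alternative except with an array left out (0 to 7), and the replicate block gave 0 there too. Genes apart numbered 1076 to 1445 higher and 973 to 1834 lower with a CD169-DTR array left out, where non-overlap is easier to meet. Medians with a CD169-DTR array left out were 0.165 to 0.285 for p53, 0.275 to 0.405 for G2/M, -0.35 to -0.12 for type I interferon, -0.21 to -0.11 for interferon-gamma, -0.303 to -0.11 for quiescence, -0.24 to -0.06 for immediate early and 0.18 to 0.475 for mast cell genes. With the dim filter the niche median was -0.26 and the immediate early median -0.195. The cause was not tested. Signs turned for Mdm2 (-0.23 to 0.39 with an array left out, with -0.23 without non-irradiated replicate 2, -0.09 without 2 Gy replicate 1), Slamf1 (-0.415 to 0.675, with -0.415 and -0.225 without the same arrays), Ighm (-6.205 to 0.705, the latter without non-irradiated replicate 2) and Siglec1 (0.025 without non-irradiated replicate 1). Over all alternatives the Cdkn1a difference lay between 3.45 and 3.90 and the Mir148a difference between -3.40 and -2.72, with adjusted p of 0.024 to 0.232 and 0.024 to 0.569. Of 959 values for 72 named genes, 945 kept direction and side of the threshold. No named gene passed in the main fit, so keeping its side meant failing again. Direction could not turn where group means stayed unchanged, as with the intensity trend, the dim filter and all probe sets. The count is therefore weak evidence of stability.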

Other observations

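Oxidative phosphorylation genes leaned higher by small amounts in CD169-DTR LT-HSC after 2 Gy. Of 55 measured, 44 were higher and 11 lower with a median of 0.105, against 0.035 over all genes and 0.08 in WT. All 11 measured ATP synthase genes were higher, with differences between 0.08 and 0.585. Atp5k, a subunit of that enzyme, had 11.45 and 11.79 without and 12.13 and 12.28 with irradiation (0.585 ± 0.18, limma adjusted p = 0.622). Without CD169-DTR non-irradiated replicate 1, 33 of the 55 were higher with a median of 0.015, and without 2 Gy replicate 1 it was 35 with 0.035.

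Unfolded protein response genes were lower in 17 of 23 members with a median of -0.17, and Hspa5, the chaperone BiP, stood apart at -0.585. Without non-irradiated replicate 2 the median was -0.04 with 12 lower. Of 23 iron and haem genes 15 were lower with a median of -0.11, which was 0.01 with 10 lower without non-irradiated replicate 2.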
